A study of Mus musculus with 8 samples.

Results

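Myelin and mature oligodendrocyte genes were examined in infarct tissue of aged mice as a set of 9 named genes, *Mbp*, *Mobp*, *Mal*, *Cnp*, *Ermn*, *Mag*, *Mog*, *Opalin* and *Myrf*. The members were listed by gene name with earlier results of these data known, and no measured value enters the rule. All 9 were found among the 46078 Ensembl identifiers of the count tables and all 9 were among the 14736 genes kept by the expression filter. The infarcts came from 8 male wild-type C57BL/6J mice, 18 months of age, given a DH stroke, that is, electrocoagulation of the distal middle cerebral artery combined with hypoxia. Starting 1 week later, 4 mice received subcutaneous vehicle (PBS) and 4 received 2-hydroxypropyl-β-cyclodextrin (HPβCD), a ring-shaped sugar that binds cholesterol and other lipids, at 4 g/kg. Injections were given 3 times per week for 6 weeks, and infarcts were collected 7 weeks after stroke. All animals had a stroke and no uninjured tissue was part of the series. Infarct tissue was recognised by eye and removed with forceps and a razor blade, and the amount of adjoining grey and white matter in a piece was thus not fixed by the procedure.

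Oligodendrocytes wrap axons of the central nervous system in myelin, a stack of lipid-rich membrane layers that is compacted by small proteins on its cytoplasmic faces. The cells arise from dividing precursors, pass through a short premyelinating stage and then switch on the structural genes of myelin together, under transcription factors that include Olig2, Sox10 and Myrf. Infarction destroys both the axons and the cells that ensheathe them, and the membrane debris is taken up by macrophages. As far as other cells do not make them, transcripts of myelin genes in an infarct therefore report oligodendrocytes that survived, formed anew or lay in tissue at its edge. Myelin lipid left behind as debris is not seen by RNA sequencing.

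Total gene counts were 32.9 M in vehicle animal 2 and between 16.6 M and 19.4 M in the other 7 libraries. Values are given as CPM, gene counts scaled to a common library total with TMM factors. The lesion markers were present throughout, with a summed level of the 8 foamy macrophage genes of 6847 to 12258 CPM in vehicle and 15100 to 24702 CPM in HPβCD-treated animals. Neuronal transcripts set vehicle animals 1 and 3 apart from the rest. The summed level of 12 neuron genes was 1526 CPM and 8937 CPM in those 2 libraries, against 67.6 CPM and 31.9 CPM in vehicle animals 2 and 4 and 14.2 to 121 CPM in the HPβCD-treated animals. The fold changes of the 9 genes are therefore also given without vehicle animals 1 and 3.

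Myelin RNA differed widely between animals of the HPβCD group. It was lowest in HPβCD animals 1 and 2, where *Mbp* still had 1086 and 1095 counts while *Mog* had 6 and 3, it was intermediate in animal 4, and it was within or close to the vehicle range in animal 3. The lowest and highest HPβCD libraries differed by more than the group means for 8 of the 9 genes, the exception being *Mal*. In vehicle animals each gene varied 2.5-fold to 4.99-fold between the lowest and the highest library. The 9 genes together took 0.331% of all gene counts in vehicle animal 1 (95% Wilson interval 0.328 to 0.334), 0.157% in animal 2 (0.156 to 0.158), 0.108% in animal 3 (0.107 to 0.11) and 0.213% in animal 4 (0.211 to 0.215). In HPβCD-treated animals the share was 0.0143% in animal 1 (0.0138 to 0.0149), 0.0142% in animal 2 (0.0136 to 0.0147), 0.137% in animal 3 (0.135 to 0.139) and 0.0657% in animal 4 (0.0645 to 0.0669). The intervals cover counting error only and are far narrower than the differences between animals. In bulk tissue, fewer oligodendrocytes and less myelin RNA per oligodendrocyte cannot be told apart.

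**Figure D1:**
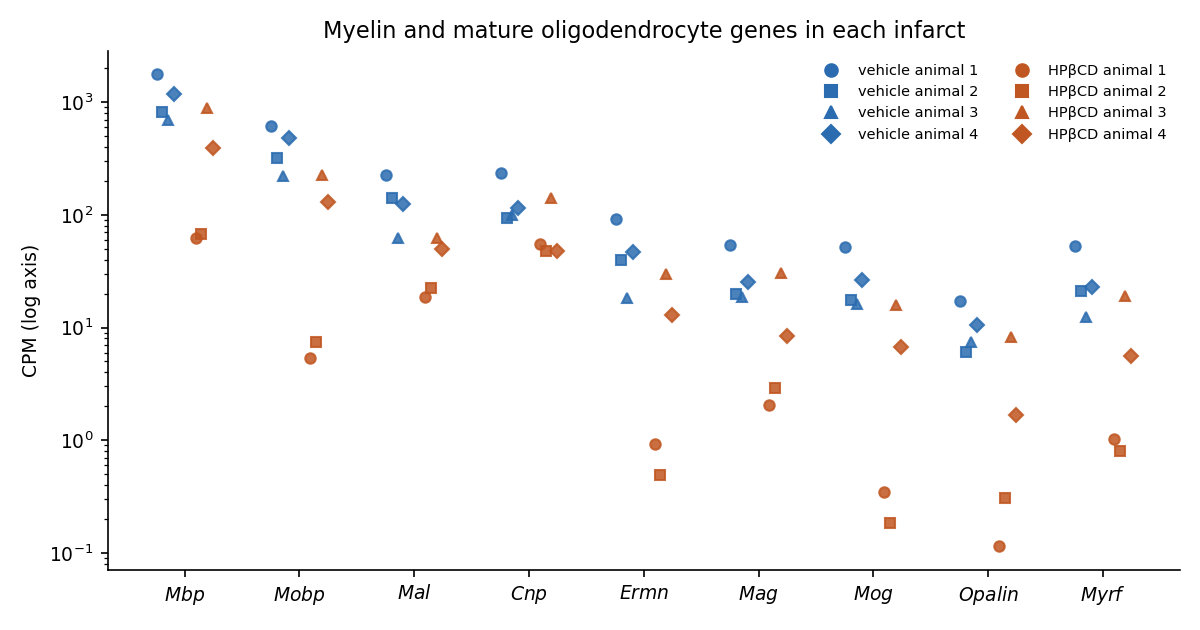
CPM of the 9 genes (log axis) in each of the 8 libraries, with vehicle in blue, HPβCD in orange and one symbol shape per animal number. HPβCD animals 1 and 2 lie lowest for every gene except *Cnp*, where animal 4 is close to them, and HPβCD animal 3 lies at or near the vehicle values.

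The animals stood in a similar order for most of the genes. Vehicle animal 1 was the highest of its group for 9 of 9 genes and HPβCD animal 3 the highest of its group for 9 of 9. HPβCD animals 1, 2 and 4 were below every vehicle library for 9 of 9 genes. HPβCD animal 3 exceeded the lowest vehicle library for 8 of 9, the exception being *Mog*. Having 3 or more HPβCD libraries under every vehicle library was met by 18.9% of all tested genes. The 9 genes are expressed in the same cells, so their agreement is not that of 9 independent observations.

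The upstream DNA of the members is shown because the genes moved together and because the Sox and Myrf proteins named above act on such regions. RefSeq starts on GRCm38.p6 were available for 7 of the 9 genes (*Mobp*, *Mal*, *Cnp*, *Ermn*, *Mag*, *Mog* and *Opalin*). In the window from 250 to 51 bases before each start, both strands were searched for ACAAAG, a sequence bound by Sox factors, and for CTGGCAC, a sequence bound by Myrf. ACAAAG occurred in 4 of the 7 genes (*Cnp*, *Mag*, *Mobp* and *Opalin*), in 5 of their 9 promoters, and in 13.6% of the 32817 promoters searched. *Mag* had several of these promoters. Its windows chr7:30914914-30915113 and chr7:30914973-30915172 overlap and hold the same ACAAAG site, which is counted for each. CTGGCAC occurred in 2 of the 7 (*Cnp* and *Mag*), in 2 of their 9 promoters, and in 3.34% of promoters. The windows that hold the most matches follow, 5′ to 3′ on the strand of the gene, with every match of either motif, in either orientation, in capitals. They lie at chr9:120149492-120149691 (plus strand) for *Mobp*, chr7:30914914-30915113 (minus strand) for *Mag* and chr11:100574689-100574888 (plus strand) for *Cnp*.
Mobp: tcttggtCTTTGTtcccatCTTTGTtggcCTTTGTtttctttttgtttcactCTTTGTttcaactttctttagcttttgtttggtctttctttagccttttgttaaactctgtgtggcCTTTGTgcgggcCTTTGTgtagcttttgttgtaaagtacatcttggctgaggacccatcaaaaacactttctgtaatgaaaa
Mag: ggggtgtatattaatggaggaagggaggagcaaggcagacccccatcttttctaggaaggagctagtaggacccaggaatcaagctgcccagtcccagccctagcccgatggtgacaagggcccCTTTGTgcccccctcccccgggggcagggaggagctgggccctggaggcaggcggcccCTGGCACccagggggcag
Cnp: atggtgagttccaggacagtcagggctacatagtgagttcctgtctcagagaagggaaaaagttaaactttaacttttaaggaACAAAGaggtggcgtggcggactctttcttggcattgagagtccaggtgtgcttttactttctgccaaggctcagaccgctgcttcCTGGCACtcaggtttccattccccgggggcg
A match is a description of the letters and not evidence of binding. The E-box CAGCTG and the TATA sequence TATAAA were in 0 of the 9 promoters of the 7 genes and in 10.3% and 9.14% of all promoters. Since the window ends 51 bases before the start, it cannot show whether a TATA sequence lies nearer to it.

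Compact myelin was represented by *Mbp*, *Mobp* and *Mal*. *Mbp* (chr18:82475146-82585637, plus strand) encodes the basic protein that holds the cytoplasmic membrane faces together. Its level was 1767, 823, 700 and 1181 CPM in vehicle animals 1 to 4 and 62.4, 67.1, 895 and 396 CPM in HPβCD animals 1 to 4. Only HPβCD animal 3 overlapped the vehicle range, where it exceeded vehicle animals 2 and 3. The means were 1118 ± 479 and 355 ± 392 CPM (SD, n = 4 each). The log2 fold change, -1.65 with an SE of 0.88, did not pass the test (edgeR adjusted p = 0.263).

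*Mobp* (chr9:120149707-120181484, plus strand) encodes another small basic protein of the compacted membrane. Its level was 615, 321, 220 and 478 CPM in vehicle and 5.34, 7.48, 228 and 129 CPM in HPβCD-treated animals. The difference between HPβCD animal 3 and HPβCD animal 1 was 42.7-fold, larger than the 4.41-fold difference between the group means of 409 ± 174 and 92.6 ± 107 CPM (SD, n = 4 each). The log2 fold change was -2.14 (edgeR, SE 1.14, adjusted p = 0.267).

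*Mal* (chr2:127633226-127656695, minus strand) encodes a proteolipid of raft-like membrane that is also made by some T cells and epithelia. It measured 228, 141, 62.0 and 125 CPM in vehicle and 18.8, 22.5, 62.1 and 50.0 CPM in HPβCD-treated animals. HPβCD animal 3 matched the lowest vehicle library and the other 3 were below it. The spread in the HPβCD group was small for this gene, 3.29-fold from lowest to highest. The means of 139 ± 68.2 and 38.4 ± 21.1 CPM (SD, n = 4 each) gave a log2 fold change of -1.86 (SE 0.50). Its edgeR adjusted p was 0.0788 and its DESeq2 adjusted p 0.00257, so it passed the threshold with DESeq2 alone of these tools.

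*Cnp* and *Ermn* act in the cytoplasm-filled channels and cytoskeleton of the myelinating cell. *Cnp* (chr11:100574904-100591729, plus strand) encodes the cyclic nucleotide phosphodiesterase that keeps these channels open, and is made at lower levels in other cells. It measured 236, 94.4, 100 and 116 CPM in vehicle and 55.2, 47.4, 140 and 47.7 CPM in HPβCD-treated animals. HPβCD animal 3 stood apart from the other 3, which were nearly equal, and exceeded 3 of the 4 vehicle libraries. The means were 137 ± 66.6 and 72.7 ± 45.2 CPM (SD, n = 4 each), with a log2 fold change of -0.91 (edgeR, SE 0.45, adjusted p = 0.229). *Dnajc7* on the opposite strand overlaps 4.2% of its exonic length.

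*Ermn* (chr2:58045113-58052864, minus strand) encodes ermin, an actin-binding protein that appears late in oligodendrocyte maturation. The values were 91.6, 39.8, 18.3 and 46.7 CPM in vehicle and 0.919, 0.49, 29.7 and 13.0 CPM in HPβCD-treated animals. HPβCD animal 3 exceeded vehicle animal 3 and HPβCD animals 1 and 2 were below 1 CPM. The means of 49.1 ± 30.8 and 11.0 ± 13.7 CPM (SD, n = 4 each) gave a log2 fold change of -2.15 (edgeR, SE 1.18, adjusted p = 0.281). *Galnt5* on the opposite strand overlaps 6.5% of its exonic length.

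*Mag*, *Mog* and *Opalin* encode glycoproteins of the cell and sheath surface. *Mag* (chr7:30899176-30914873, minus strand) lies on the innermost wrap, facing the axon. It measured 53.9, 19.7, 18.6 and 25.6 CPM in vehicle and 2.07, 2.88, 30.2 and 8.33 CPM in HPβCD-treated animals, of which animal 3 exceeded 3 of the 4 vehicle libraries. The means were 29.5 ± 16.6 and 10.9 ± 13.2 CPM (SD, n = 4 each) and the log2 fold change was -1.44 (edgeR, SE 0.86, adjusted p = 0.318).

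*Mog* (chr17:37010743-37023398, minus strand) lies on the outermost surface of the sheath. Its values were 52.0, 17.6, 16.3 and 26.2 CPM in vehicle and 0.345, 0.184, 15.7 and 6.77 CPM in HPβCD-treated animals, the low values resting on 6 and 3 counts. It was the only member whose groups did not overlap, by the margin between 16.3 CPM and 15.7 CPM. Among all tested genes, 8.03% had HPβCD values wholly below vehicle. The means of 28.0 ± 16.6 and 5.74 ± 7.29 CPM (SD, n = 4 each) gave a log2 fold change of -2.28 (edgeR, SE 1.19, adjusted p = 0.258).

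*Opalin* (chr19:41061710-41077113, minus strand) encodes a transmembrane sialoglycoprotein largely restricted to mature oligodendrocytes. It measured 17.3, 6.11, 7.38 and 10.5 CPM in vehicle and 0.115, 0.306, 8.21 and 1.67 CPM in HPβCD-treated animals, with 2 and 5 counts behind the lowest values. HPβCD animal 3 was above vehicle animals 2 and 3. The means were 10.3 ± 5.01 and 2.57 ± 3.82 CPM (SD, n = 4 each) and the log2 fold change was -1.99 (edgeR, SE 1.09, adjusted p = 0.278).

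*Myrf* (chr19:10208272-10240748, minus strand) encodes the transcription factor that mature oligodendrocytes need to express myelin genes. It was measured at 52.6, 21, 12.3 and 23.0 CPM in vehicle and at 1.03, 0.797, 18.9 and 5.61 CPM in HPβCD-treated animals. HPβCD animals 1, 2 and 4 were below every vehicle library, and HPβCD animal 3 was above vehicle animal 3. The means of 27.2 ± 17.5 and 6.58 ± 8.5 CPM (SD, n = 4 each) gave a log2 fold change of -2.04 (edgeR, SE 1.01, adjusted p = 0.234).

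**Figure D2:**
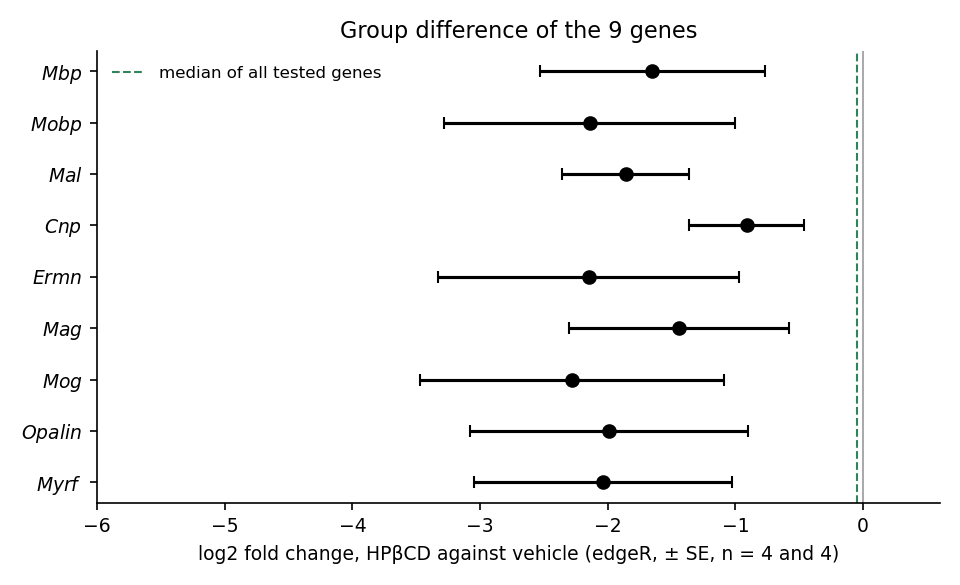
Log2 fold change of each gene, HPβCD against vehicle, from the edgeR fit on 4 and 4 animals, with bars of 1 SE and the median of all tested genes as a dashed line. All 9 points lie below 0, between -2.28 and -0.91, and the shortest bars belong to *Cnp* and *Mal*.

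As a group, 9 of 9 genes had a fold change below 0, where 54.1% of all tested genes did, and 8 of 9 were below -1, where 13.1% did. Their median log2 fold change was -1.99, beside -0.05 over all tested genes. With edgeR 0 of 9 were called lower, where 0.774% of tested genes were, and only *Mal* had an unadjusted p under 0.05, where 16.0% of tested genes were lower at that level. DESeq2 called 1 of 9, *Mal*, where it called 7.09% of its genes lower, a share over all 26720 genes with a count. With limma-voom and sample quality weights 9 of 9 were called lower, where 10.9% of tested genes were, with adjusted p from 0.00726 for *Mal* to 0.048 for *Cnp* and a median log2 fold change of -3.92. That fit gave vehicle animal 3 a weight of 0.162, vehicle animal 4 a weight of 2.5, and HPβCD animals 1 to 4 weights of 1.95, 2.83, 0.765 and 0.673. A call for the group therefore depended on the tool.

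The spread itself was unequal. The SD of log2 CPM was larger in HPβCD-treated than in vehicle animals for 9 of 9 genes, where this held for 33.4% of all tested genes. It was 0.59 against 1.91 for *Mbp*, 0.65 against 2.76 for *Mobp* and 0.76 against 2.86 for *Mog*, vehicle first. For *Mal* and *Cnp* the values were close, 0.77 against 0.84 and 0.61 against 0.75. Without HPβCD animal 3 the median log2 fold change of the 9 genes was -3.11, and without vehicle animal 1 it was -1.5, and in neither case was a member called by edgeR. At an unadjusted p under 0.05 in either direction edgeR had 9 of 9 members without HPβCD animal 3, where 23.8% of the genes tested in that fit were under it. With each other animal left out it had 1 of 9, where 19.4% to 29.5% of tested genes were. After multiple test adjustment edgeR called 0.0% of all genes without HPβCD animal 3.

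Levels per kilobase of exon placed the genes in an order in vehicle animals. *Mbp* came first with 132 ± 56.5 CPM per kilobase (SD, n = 4), followed by *Mobp* with 59.7 ± 25.4, *Mal* with 50.0 ± 24.5 and *Cnp* with 37.5 ± 18.3 CPM per kilobase. *Mog* had 16.4 ± 9.74, *Ermn* 13.5 ± 8.47, *Mag* 7.24 ± 4.07, *Opalin* 3.51 ± 1.70 and *Myrf* 3.18 ± 2.05 CPM per kilobase. The ranges of every pair of neighbours in this order overlapped. Within single libraries *Mbp* was above *Mobp*, *Cnp* above *Mog*, *Ermn* above *Mag* and *Mag* above *Opalin* in 4 of 4 vehicle libraries. *Mobp* was above *Mal*, *Mal* above *Cnp* and *Mog* above *Ermn* in 3 of 4, and *Opalin* above *Myrf* in 2 of 4.

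The levels of the other members relative to *Mbp* also differed between animals. In vehicle, *Mobp* was between 31.5% and 40.5% of the *Mbp* level in the same library, whereas it was 8.56%, 11.1%, 25.5% and 32.6% in HPβCD animals 1 to 4. *Cnp* was 9.83% to 14.3% of *Mbp* in vehicle and 88.5%, 70.7%, 15.7% and 12.1% in HPβCD-treated animals. *Mal* was 8.87% to 17.1% of *Mbp* in vehicle and 30.2%, 33.6%, 6.94% and 12.6% in HPβCD-treated animals. Relative to *Mbp*, *Cnp* and *Mal* were thus above their vehicle range in HPβCD animals 1 and 2, and so, by less, was *Mag*. *Cnp* and *Mal* are also made outside oligodendrocytes. The part of other cells in these ratios, also in the *Mbp* level they are divided by, was not tested. *Mog* was 2.14% to 2.94% of *Mbp* in vehicle and did not exceed 1.75% in any HPβCD library. *Mag* kept closer to *Mbp*, at 2.17% to 3.05% in vehicle and 3.31%, 4.29%, 3.37% and 2.1% in HPβCD-treated animals.

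**Figure D3:**
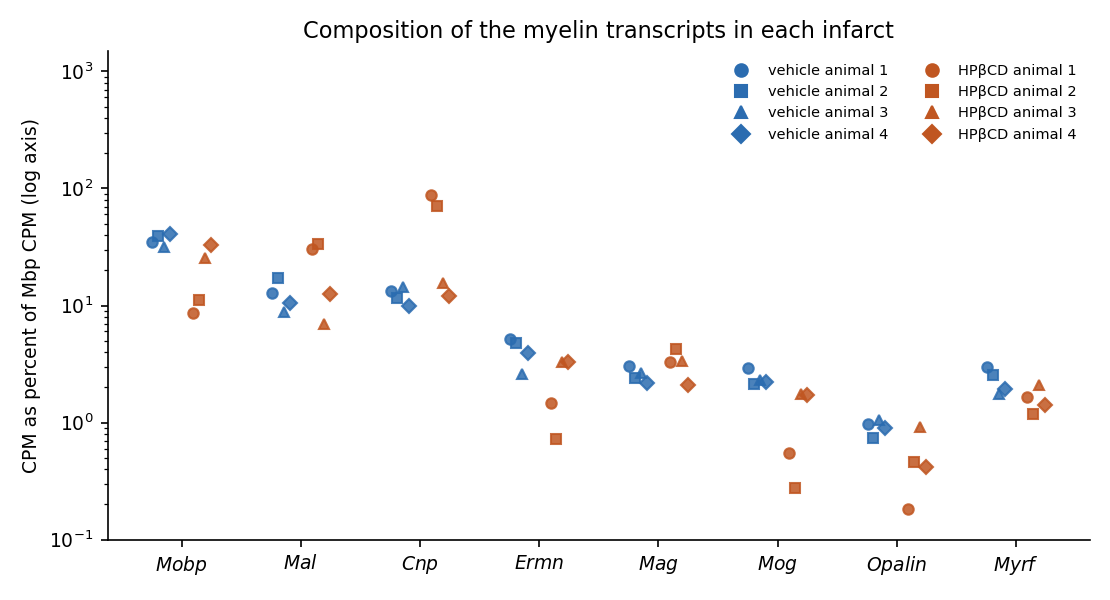
CPM of 8 genes as a percent of *Mbp* CPM in the same library (log axis), vehicle in blue and HPβCD in orange. The 4 vehicle libraries lie close together for each gene. HPβCD animals 1 and 2 lie above them for *Cnp*, *Mal* and *Mag* and below them for *Mobp*, *Mog*, *Ermn*, *Opalin* and *Myrf*.

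Neuron content did not order the vehicle animals in the same way as myelin. The 9 genes summed to 3113, 1483, 1155 and 2033 CPM in vehicle animals 1 to 4, where the neuron genes summed to 1526, 67.6, 8937 and 31.9 CPM. The library richest in neuronal RNA, vehicle animal 3, thus had the least myelin RNA of its group, and vehicle animal 4, the poorest in neuronal RNA, had the second most. In HPβCD animals 1 to 4 the myelin sums were 146, 149, 1428 and 658 CPM and the neuron sums 18.1, 14.2, 121 and 29.7 CPM, so that both sums had the same highest library. Myelin CPM per neuron CPM spanned 0.129 to 63.7 in vehicle and 8.08 to 22.1 in HPβCD-treated animals. Since the libraries fall into separate clusters of neuron content, no correlation between the myelin and neuron sums was computed. For single tested neuron genes, the Pearson correlation with the mean centred log2 CPM of the members was 0.44 to 0.69. The same clusters and the group difference enter these values.

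**Figure D4:**
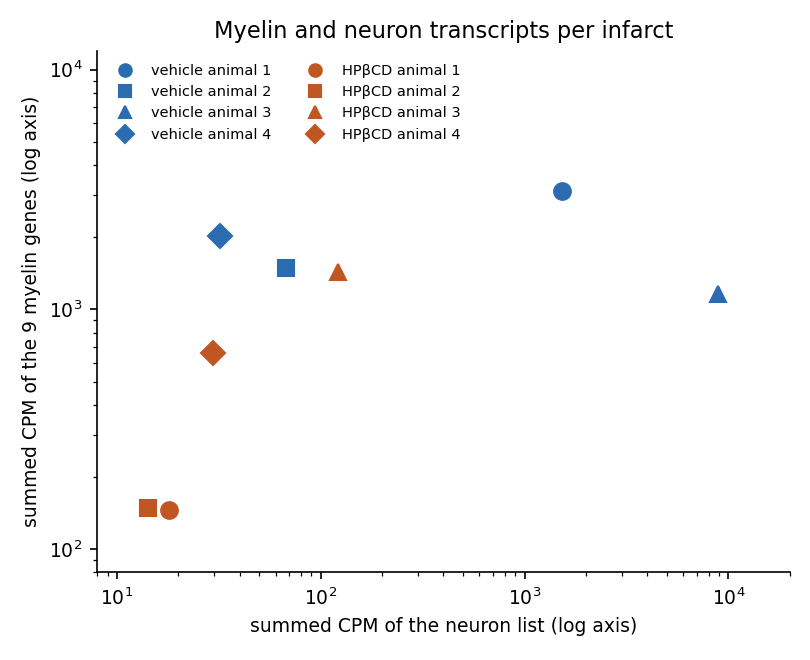
Summed CPM of the 9 myelin genes against summed CPM of the neuron list in each library (both axes log), vehicle in blue and HPβCD in orange. Vehicle animals 1 and 3 lie far to the right at 1526 and 8937 neuron CPM, while the other 6 libraries have 121 neuron CPM or fewer and span 146 to 2033 myelin CPM.

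Vehicle animals 2 and 4, with 67.6 and 31.9 neuron CPM, lay within the range of 14.2 to 121 neuron CPM of the HPβCD group but above its animals 1, 2 and 4. Their myelin sums of 1483 and 2033 CPM were above all 4 HPβCD libraries. With vehicle animals 1 and 3 left out, the median log2 fold change of the 9 genes was -1.71 and 0 of 9 were called by edgeR (adjusted p from 0.131 to 0.632). On the log2 scale the fold changes without those animals were -1.48 for *Mbp*, -2.09 for *Mobp*, -1.77 for *Mal*, -0.52 for *Cnp*, -1.94 for *Ermn*, -1.04 for *Mag*, -1.90 for *Mog*, -1.65 for *Opalin* and -1.71 for *Myrf*. That fit called 1.34% of all its genes. With the neuron score, the mean centred log2 CPM of the neuron genes, as a covariate, the median was -1.54, and edgeR called 0 of 9 members and 0.0136% of all genes, so the count of 0 says little about the members.

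Genes with the pattern most like that of the 9 were other oligodendrocyte genes. Over the 8 libraries, which share the 2 groups, the 5 highest Pearson correlations with the mean centred log2 CPM of the members included those of *Hapln2* (0.997), *Ugt8a* (0.996), *Prr18* (0.993) and *Tmem88b* (0.991). *Ugt8a*, an enzyme of galactolipid synthesis, measured 84.7, 37.5, 19.9 and 44.6 CPM in vehicle and 0.632, 0.735, 20.7 and 10.0 CPM in HPβCD-treated animals, with HPβCD animal 3 above vehicle animal 3. *Hapln2*, a link protein of the perinodal matrix, had 0 counts in HPβCD animals 1 and 2, which allows up to 3 counts in each.

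The wider list of myelin and oligodendrocyte structure had 26 tested genes. Of these, 21 had a fold change below 0 and the median was -1.58. EdgeR called 0 lower and 1 higher, where 1.17% of all tested genes were higher. The gene called higher was *Apod*, a lipid-binding lipocalin that is also made by fibroblasts and astrocytes, with 1196, 1776, 1230 and 2512 CPM in vehicle and 5254, 4684, 5598 and 3483 CPM in HPβCD-treated animals (log2 fold change 1.5 by edgeR, SE 0.29, adjusted p = 0.0483). Its 4 HPβCD values all lay above its 4 vehicle values. *Cldn11*, the tight junction protein of the sheath, was at 129 to 327 CPM in vehicle and 220 to 408 CPM in HPβCD-treated animals, a log2 fold change of 0.20 (edgeR, SE 0.31, adjusted p = 0.718). This gene is also expressed outside myelin, in meningeal barrier cells among others. At an unadjusted p under 0.05 edgeR had 11 of the 26 in either direction, where 27.8% of all tested genes were, and DESeq2 called 9 of the 26 lower, where it called 7.09% of its genes.

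Of the 10 enzymes of myelin lipid, 4 had fold changes below 0 and 6 above, with a median of 0.24. Those below 0 included 3 that build the galactolipids of the sheath, with *Ugt8a*, which makes galactosylceramide, at -2.53 (edgeR, SE 1.10, adjusted p = 0.184). *Gal3st1*, which adds the sulfate of sulfatide, was at -2.17 (edgeR, SE 0.71, adjusted p = 0.0976) and *Fa2h*, which hydroxylates the fatty acid, at -1.53 (edgeR, SE 1.24, adjusted p = 0.469). *Arsa*, which removes that sulfate in lysosomes, was the only one of the 10 called by edgeR, where 1.17% of all tested genes were called higher. It measured 32.6, 38.5, 33.6 and 37.2 CPM in vehicle and 62.2, 62.0, 72.0 and 58.1 CPM in HPβCD-treated animals (log2 fold change 0.84 by edgeR, SE 0.12, adjusted p = 0.0405). *Galc*, which cleaves galactosylceramide, did not overlap between groups, at 137 to 233 CPM in vehicle and 296 to 390 CPM in HPβCD-treated animals (log2 fold change 0.85 by edgeR, SE 0.21, adjusted p = 0.0658). *Elovl1*, which lengthens fatty acids, did not overlap either, at 31.5 to 48.8 CPM in vehicle and 55.2 to 80.5 CPM in HPβCD-treated animals (log2 fold change 0.77 by edgeR, SE 0.18, adjusted p = 0.0624). Non-overlap with higher HPβCD values was met by 3 of the 10 genes and by 8.77% of all tested genes. Building and degrading enzymes were thus both found above 0. *Smpd1*, the acid sphingomyelinase, differed little (log2 fold change 0.17 by edgeR, SE 0.17, adjusted p = 0.566), and *Cers2*, which makes very long chain ceramides, was at 0.96 (edgeR, SE 0.27, adjusted p = 0.0786).

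Earlier stages of the lineage were less uniform in fold change. Among 10 transcription factors 9 had fold changes below 0, with a median of -1.98. EdgeR called 1 lower, *Zfp536* (log2 fold change -1.14, SE 0.23, adjusted p = 0.0499), where 0.774% of all tested genes were. At an unadjusted p under 0.05 it had 9 of the 10 in either direction, where 27.8% of all tested genes were. DESeq2 called 6 of the 10 lower, where it called 7.09% of its genes lower. *Olig1*, which directs oligodendrocyte maturation, measured 49.4, 17.2, 29.1 and 21.6 CPM in vehicle and 1.44, 4.60, 15.0 and 6.88 CPM in HPβCD-treated animals, without overlap (log2 fold change -2.07 by edgeR, SE 0.67, adjusted p = 0.102). *Tcf7l2*, a Wnt effector shared with other cells, was the exception at 0.55 (edgeR, SE 0.22, adjusted p = 0.144). All 7 genes of newly formed oligodendrocytes had fold changes below 0 and a median of -0.49. EdgeR called 0 of them and had 2 at an unadjusted p under 0.05, where 27.8% of all tested genes were. DESeq2 called 1, *Gpr17*, where it called 7.09% of its genes lower. The edgeR log2 fold change of *Gpr17* was -2.96 (SE 0.98, adjusted p = 0.105), with 1 count each in HPβCD animals 1 and 2. The most abundant members of this list were *Itpr2* at -0.20 (SE 0.11), *Fyn* at -0.49 (SE 0.22) and *Bcas1* at -1.92 (SE 0.96) on the log2 scale.

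Precursor genes included 2 of 10 called lower by edgeR, *Tnr* and *Pcdh15*, where 0.774% of all tested genes were, and the median log2 fold change was -1.48. At an unadjusted p under 0.05 edgeR had 6 of the 10 in either direction, where 27.8% of all tested genes were. DESeq2 called 4 of the 10 lower and 1 higher, where it called 1895 lower and 1016 higher of its 26720 genes. *Tnr*, the matrix glycoprotein tenascin-R, measured 113, 42.0, 119 and 52.8 CPM in vehicle and 5.86, 13.1, 22.6 and 15.7 CPM in HPβCD-treated animals (log2 fold change -2.51 by edgeR, SE 0.49, adjusted p = 0.0499). *Ptprz1*, a receptor phosphatase of precursors and astrocytes, had a log2 fold change of -2.26 (edgeR, SE 0.48, adjusted p = 0.0545). Its vehicle values were 210, 77.1, 268 and 117 CPM. *Tnr* and *Ptprz1* were thus highest in vehicle animals 1 and 3, the libraries richest in neuronal RNA, and the part of neuron content in these fold changes was not tested. *Pdgfra*, the growth factor receptor of precursors and also of fibroblasts, went the other way, with 156 to 300 CPM in vehicle and 412 to 461 CPM in HPβCD-treated animals (log2 fold change 0.87 by edgeR, SE 0.23, adjusted p = 0.0690). The 7 fibroblast genes summed to 2460 to 6134 CPM in vehicle and 8782 to 9391 CPM in HPβCD-treated animals, and their part in the *Pdgfra* value was not tested. The edgeR calls in these lists (*Apod*, *Arsa*, *Zfp536*, *Tnr*, *Pcdh15* and *Cdh19*) depended on which animals were included. EdgeR called 0 of all genes on leaving out vehicle animal 1 or 4 or HPβCD animal 2 or 3, with 2922 to 4216 at an unadjusted p under 0.05. It called 4 without HPβCD animal 1, and 556, 629 and 353 without vehicle animal 2, vehicle animal 3 and HPβCD animal 4. Whether the named genes were among those is not given here.

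**Figure D5:**
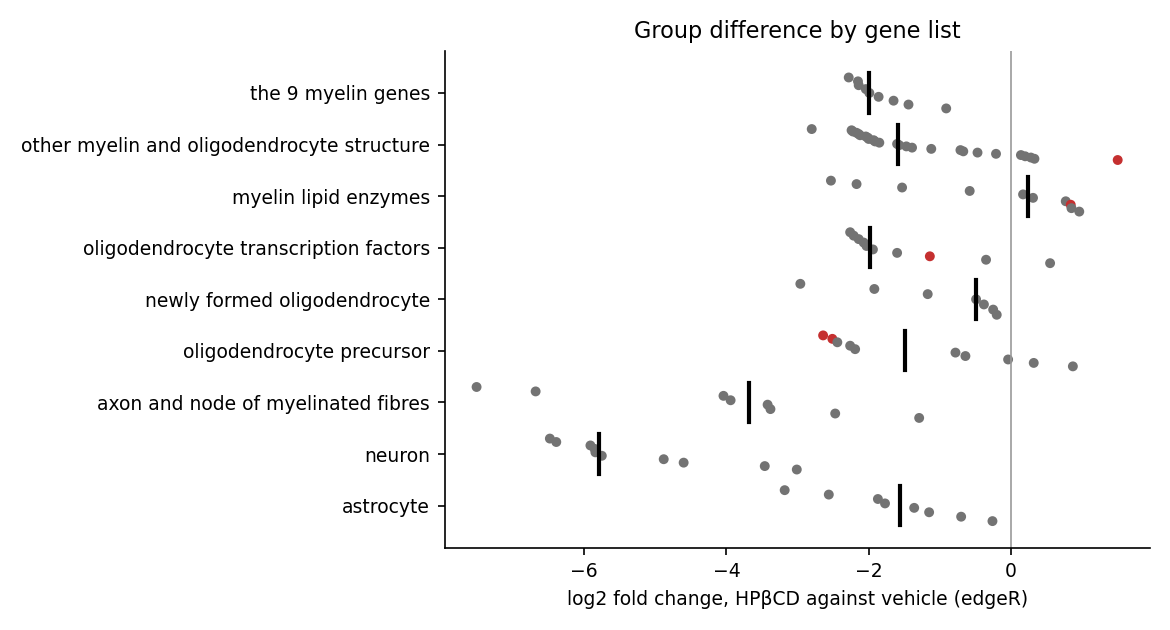
Log2 fold change, HPβCD against vehicle, of every tested gene of 9 lists (edgeR), with the median of each list as a black bar and genes with an adjusted p under 0.05 in red. The 9 myelin genes lie at -2.28 to -0.91, the neuron list has the lowest median at -5.8, and the enzymes of myelin lipid spread to both sides of 0.

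Genes of peripheral myelin were examined because Schwann cells can enter injured central tissue. Of the 6 tested genes, 3 had fold changes below 0. EdgeR called only *Cdh19* of the 6 lower (log2 fold change -2.11, SE 0.38, adjusted p = 0.0483), where 0.774% of all tested genes were. *Pmp22* was at 209 to 353 CPM in vehicle and 391 to 515 CPM in HPβCD-treated animals (log2 fold change 0.73 by edgeR, SE 0.20, adjusted p = 0.0732).

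Axonal and astrocyte genes were set beside the myelin genes. All 8 tested genes of the axon and node had fold changes below 0, with a median of -3.68, and 5 of them did not overlap between groups, where 8.03% of all tested genes were lower without overlap. EdgeR called 0 of the 8 and had 6 at an unadjusted p under 0.05, where 27.8% of tested genes were, and DESeq2 called 6, where it called 7.09% of its genes lower. *Kcna1*, a potassium channel next to the node, measured 128, 37.9, 257 and 46.1 CPM in vehicle and 4.48, 4.72, 22.4 and 12.3 CPM in HPβCD-treated animals (log2 fold change -3.42 by edgeR, SE 0.83, adjusted p = 0.0686). Unlike the myelin genes, it was highest in vehicle animal 3. The 8 astrocyte genes summed to 7625, 2408, 10007 and 3880 CPM in vehicle and to 771, 972, 2702 and 1587 CPM in HPβCD-treated animals. All 8 had fold changes below 0 with a median of -1.57. EdgeR called 0 of the astrocyte genes and had 6 at an unadjusted p under 0.05, where 27.8% of tested genes were. DESeq2 called 6, where it called 7.09% of its genes lower. *Slc1a2*, a glutamate transporter that makes up much of the sum, was at 80.3, 165, 807 and 383 CPM in HPβCD animals 1 to 4, *Gfap*, the astrocyte filament gene, at 113, 117, 907 and 349 CPM, and *Aqp4*, a water channel, at 65.7, 81.1, 264 and 235 CPM. *Gja1*, a gap junction gene, did not follow this order, at 269, 353, 257 and 247 CPM. Vehicle animal 3, lowest of its group in myelin sum, was highest in the axon and astrocyte sums. Of the other cell types listed, microglia genes summed to 876 to 1500 CPM in vehicle and 1052 to 1742 CPM in HPβCD-treated animals, endothelial genes to 430 to 505 and 470 to 805 CPM, and T lymphocyte genes to 84.1 to 119 and 70.5 to 172 CPM. Genes of B lymphocytes and plasma cells summed to 1372 to 2910 CPM in vehicle and 253 to 543 CPM in HPβCD-treated animals. Of these 7 genes edgeR called 3 lower, where 0.774% of all tested genes were. The sums of axon and astrocyte genes were lowest in HPβCD animals 1 and 2, as was the myelin sum, and how much each piece held of tissue outside the lesion was not tested.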

How the data were processed

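Polyadenylated RNA of 8 infarcts (4 vehicle, 4 HPβCD) had been sequenced from strand-specific paired-end libraries. The authors demultiplexed with bcl2fastq 2.19, trimmed with Trimmomatic 0.32, aligned to GRCm38 with STAR 2.5.2b and counted with htseq-count, whose version, strand option and annotation release are not given in the sources used here. The deposited values are raw counts per gene, 1 table per animal. Lines for unassigned reads (26.6% to 36.6% of a table) were left out. Because the strand option is unknown, overlaps with genes on the other strand are given beside *Cnp* and *Ermn*. Symbols matched 45143 of 46078 identifiers, and coordinates and exon lengths are those of GENCODE M21 on GRCm38.

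Groups came from the sample labels, which name separate animals and no batch. Differential expression was tested with edgeR 4.0.16 (robust quasi-likelihood F test, TMM, filterByExpr, no covariate) in R 4.3.3, with Benjamini-Hochberg adjustment over all 14736 kept genes and a threshold of 0.05. log2 CPM used a prior count of 2. DESeq2 1.42.0, the study's own tool, was run on all 26720 genes with a count, and limma 3.58.1 supplied limma-voom. The DESeq2 shares are over that wider set, low-count genes included, while the listed genes tested were all among the 14736 kept. The procedure was tested on simulated data. Other alternatives covered scaling, filter, depth, neuron content, the animal number as a block and leaving out each animal.

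The 9 members and all gene lists were chosen with earlier results of these data known. All members are named, with the 3 most abundant tested genes of other lists as examples and the 5 genes most correlated with the members, except that some are not reported here. Other genes (*Arsa*, *Pcdh15*, *Cdh19*, *Ugt8a*, *Gal3st1*, *Fa2h*, *Elovl1*, *Gja1* and *Gpr17*) were named after their values were seen. Lists of microglia, endothelium, B and T lymphocytes served only to describe the libraries.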

Additional observations from a re-analysis of the deposited data

Results flagged for a closer look

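One value stood far from the rest of its group. The level of *Cnp* in HPβCD animal 3 was 7.13 log2 CPM, whereas the other 3 HPβCD libraries lay between 5.57 and 5.79 log2 CPM. It was the 1 case among 50 groups of 4 examined for such a gap, where chance gives about 2.5. The same animal was the highest of its group for 9 of 9 myelin genes.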

How the results depend on the processing

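The number of myelin genes called lower was 0 of 9 with edgeR, 1 with DESeq2 and 9 with limma-voom with sample quality weights, for which the median log2 fold change was -3.92 in place of -1.99. The cause of that difference was not tested. With other scalings and filters, thinning to the smallest library, neuron content as a covariate or vehicle animals 1 and 3 left out, edgeR called 0 of 9. Leaving out 1 animal at a time gave 0 of 9 throughout and medians from -3.11 to -1.5. Of 180 values of single genes under alternatives, 0 changed direction and 10 passed the threshold that the edgeR fit did not. The animal numbers were not shown to pair the samples. Deviations from the group means correlated at -0.26, 0.24, 0.33 and 0.10 between groups for numbers 1 to 4. The highest correlation of the same vehicle animals with an HPβCD animal of another number was 0.35, 0.16, -0.09 and 0.24. With so few animals these values cannot decide whether the numbers mark pairs. With the number as a replicate block the median was -2.91 and 0 of 9 were called, in a fit that called 9 of 14736 genes. With library totals alone 11 of 14736 were called, and with neuron content as a covariate 2, so 0 of 9 says little there. *Mog* and *Opalin* rest on 2 to 6 counts in HPβCD animals 1 and 2. Over all genes, edgeR calls varied from 0 to 629 when 1 animal was left out, against 287 with all 8.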
